A study of Mus musculus with 30 samples.

Results

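Colony-stimulating factors are the secreted growth factors that keep monocytes, macrophages and granulocytes alive and drive their growth. The genes described here were the ligand Csf1 and the receptor genes Csf1r, Csf2ra, Csf2rb, Csf2rb2 and Csf3r. These 6 genes were taken by name from the 45317 genes of the deposited count table, and all 6 passed the filter on low counts. Their expression was measured by bulk RNA sequencing in 8 cell populations sorted from blood and brain of mice that carried a GL261 glioma, a syngeneic mouse tumor line.

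All mice were heterozygous C57BL6.CCR2RFP/WT animals, in which RFP replaces 1 copy of Ccr2, and were 12 to 18 weeks old. The tumor cells carried palmitoylated GFP in their membranes, so GFP in a sorted cell marked uptake of tumor membrane. The populations were Ly6Chigh and Ly6Clow blood monocytes (mice 22, 23 and 24, n = 3 each), GFPneg and GFPpos glioma monocytes (mice 22, 24 and 26, n = 3 each), and GFPneg and GFPpos macrophages with high or low CCR2 (mice 22, 23, 24 and 26, n = 4 each of the 4 populations). Each replicate was 1 population from 1 mouse, and no tumor-free animals entered these comparisons. Blood cells were gated on CD115, the protein product of Csf1r, while brain cells were gated on CD11b, CD45, F4/80 and Ly6C without CD115. Brain tissue was dissociated with enzymes and blood was not, so that effects of tissue handling and of the brain environment cannot be told apart.

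CSF1 and interleukin 34 bind CSF1R, a receptor tyrosine kinase on which monocytes, macrophages and microglia depend for survival. GM-CSF, the product of Csf2, binds an alpha chain encoded by Csf2ra, which signals through the common beta chain encoded by Csf2rb. Mice have an additional beta chain gene, Csf2rb2, whose product pairs with the interleukin 3 receptor alpha chain. CSF3R is the G-CSF receptor, best known from neutrophils and their precursors.

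Sequencing depth ranged from 1553616 to 5689644 counts on genes per replicate. In blood, Ly6c2, which encodes the antigen of the Ly6C gate, was higher in Ly6Chigh than in Ly6Clow blood monocytes (964 to 1291 against 27.8 to 273 CPM, TMM-scaled counts relative to library size), and Spn, which was not part of the gate and is known to be high in Ly6Clow monocytes, was lower (30.5 to 66.3 against 231 to 469 CPM). Microglial markers were present in every brain population, although those cells had been gated on high CD45. The summed level of 8 microglial markers was 58.6 to 285 CPM in blood and 1691 to 9063 CPM in brain, and all 8 were detected in each of the 6 brain populations. Tmem119, a defining microglial gene, averaged 413 CPM in GFPneg glioma monocytes and 1219 CPM in GFPneg CCR2low macrophages. It was at 0 in all Ly6Clow replicates.

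Csf1r and Csf3r lie on chromosomes 18 and 4, and Csf1 and Csf2ra on chromosomes 3 and 19. In GENCODE vM21 on build GRCm38, the build of the deposited counts, Csf1 (ENSMUSG00000014599.10) spans chr3:107741048-107760469 on the minus strand and Csf3r (ENSMUSG00000028859.14) spans chr4:126024550-126044440 on the plus strand. Csf2ra (ENSMUSG00000059326.7) is a compact gene at chr19:61223957-61228429 on the minus strand. The beta chain genes are neighbors on chromosome 15 in opposite orientation, with Csf2rb2 (ENSMUSG00000071714.7) at chr15:78282507-78305721 on the minus strand and Csf2rb (ENSMUSG00000071713.6) at chr15:78325752-78353847 on the plus strand. Of all 75-base windows in their annotated transcripts, 7.15% for Csf2rb and 10.6% for Csf2rb2 occurred unchanged in the other gene, so the split of reads between them is uncertain over that part. For Csf1r (ENSMUSG00000024621.16), 15.1% of exonic bases overlap exons of Hmgxb3 on the opposite strand, and the strand setting of the counting was not given in the sources used here.

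The promoters of Csf1 and Csf2rb2 are shown because these 2 genes were higher in glioma monocytes than in Ly6Chigh blood monocytes. RefSeq promoter sequences (GRCm38.p6, from 250 bases before to 50 after the start of transcription) were matched for 4 of the 6 genes. Both strands were searched for 3 motifs, and capitals mark every match. The motifs were AP-1 (TGANTCA), PU.1 (GAGGAAG) and NF-kB (GGGA and CC parted by 4 bases), and no match to one motif overlapped a match to another in the sequences shown.
Csf1, chr3:107760420-107760719, minus strand: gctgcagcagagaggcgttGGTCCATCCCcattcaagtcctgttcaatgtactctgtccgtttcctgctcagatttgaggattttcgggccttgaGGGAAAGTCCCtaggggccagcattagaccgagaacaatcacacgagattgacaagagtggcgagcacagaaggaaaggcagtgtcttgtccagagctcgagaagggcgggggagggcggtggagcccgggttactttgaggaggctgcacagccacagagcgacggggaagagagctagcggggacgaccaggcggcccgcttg
Csf2rb2, chr15:78305672-78305971, minus strand: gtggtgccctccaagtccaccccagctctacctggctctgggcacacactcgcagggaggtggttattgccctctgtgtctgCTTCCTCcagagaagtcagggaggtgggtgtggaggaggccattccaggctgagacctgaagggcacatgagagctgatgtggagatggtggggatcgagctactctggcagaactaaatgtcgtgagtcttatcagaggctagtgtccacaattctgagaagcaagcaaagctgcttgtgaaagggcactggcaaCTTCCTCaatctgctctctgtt

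The Csf1 promoter held 3 matches to the NF-kB letters, of which 2 overlapped, and none to the other motifs. That motif occurred in 20.7% of all 32851 promoters of this length. The Csf2rb2 promoter held 2 matches to the PU.1 letters, a motif present in 13.6% of promoters, and no match to AP-1, present in 7.81%. PU.1 letters also occurred 2 times in the Csf2ra promoter and 1 time in that of Csf3r, where 1 NF-kB match was found as well. These matches describe the letters and do not show binding.

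Csf1r was by far the most abundant of the 6 genes, and its population means lay between 2814 and 3563 CPM. Per kilobase of exon, the level of Csf1r averaged 617 CPM per kb in Ly6Chigh blood monocytes, against 149 for Csf2ra, 118 for Csf3r, 68.4 for Csf2rb, 13.7 for Csf2rb2 and 1.05 for Csf1. The same scale gave 565, 73.7, 40.9, 38.5, 21.4 and 13.95 CPM per kb in GFPneg CCR2low macrophages. Csf1 stood lowest of the 6 in both populations.

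Over the 8 populations, 3 of the 6 genes differed in the quasi-likelihood test of edgeR (p adjusted by Benjamini-Hochberg, under 0.05), beside 25.1% of all 11566 genes tested. They were Csf1 (adjusted p = 0.00261), Csf2rb2 (adjusted p = 0.00277) and Csf3r (adjusted p = 0.00228). Csf2rb did not pass (adjusted p = 0.0898), nor did Csf2ra (adjusted p = 0.664) or Csf1r (adjusted p = 0.915). With the mouse as a replicate block Csf2rb passed too (adjusted p = 0.0378), within a range of 0.0237 to 0.536 over its alternatives. Over the 6 brain populations alone none of the 6 genes passed, beside 0.942% of all genes. Csf3r had the smallest adjusted p there (0.397), and DESeq2 called it (adjusted p = 0.0162). Where a level differed between these bulk samples, fewer cells of a type and less RNA per cell cannot be told apart.

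**Figure D1:**
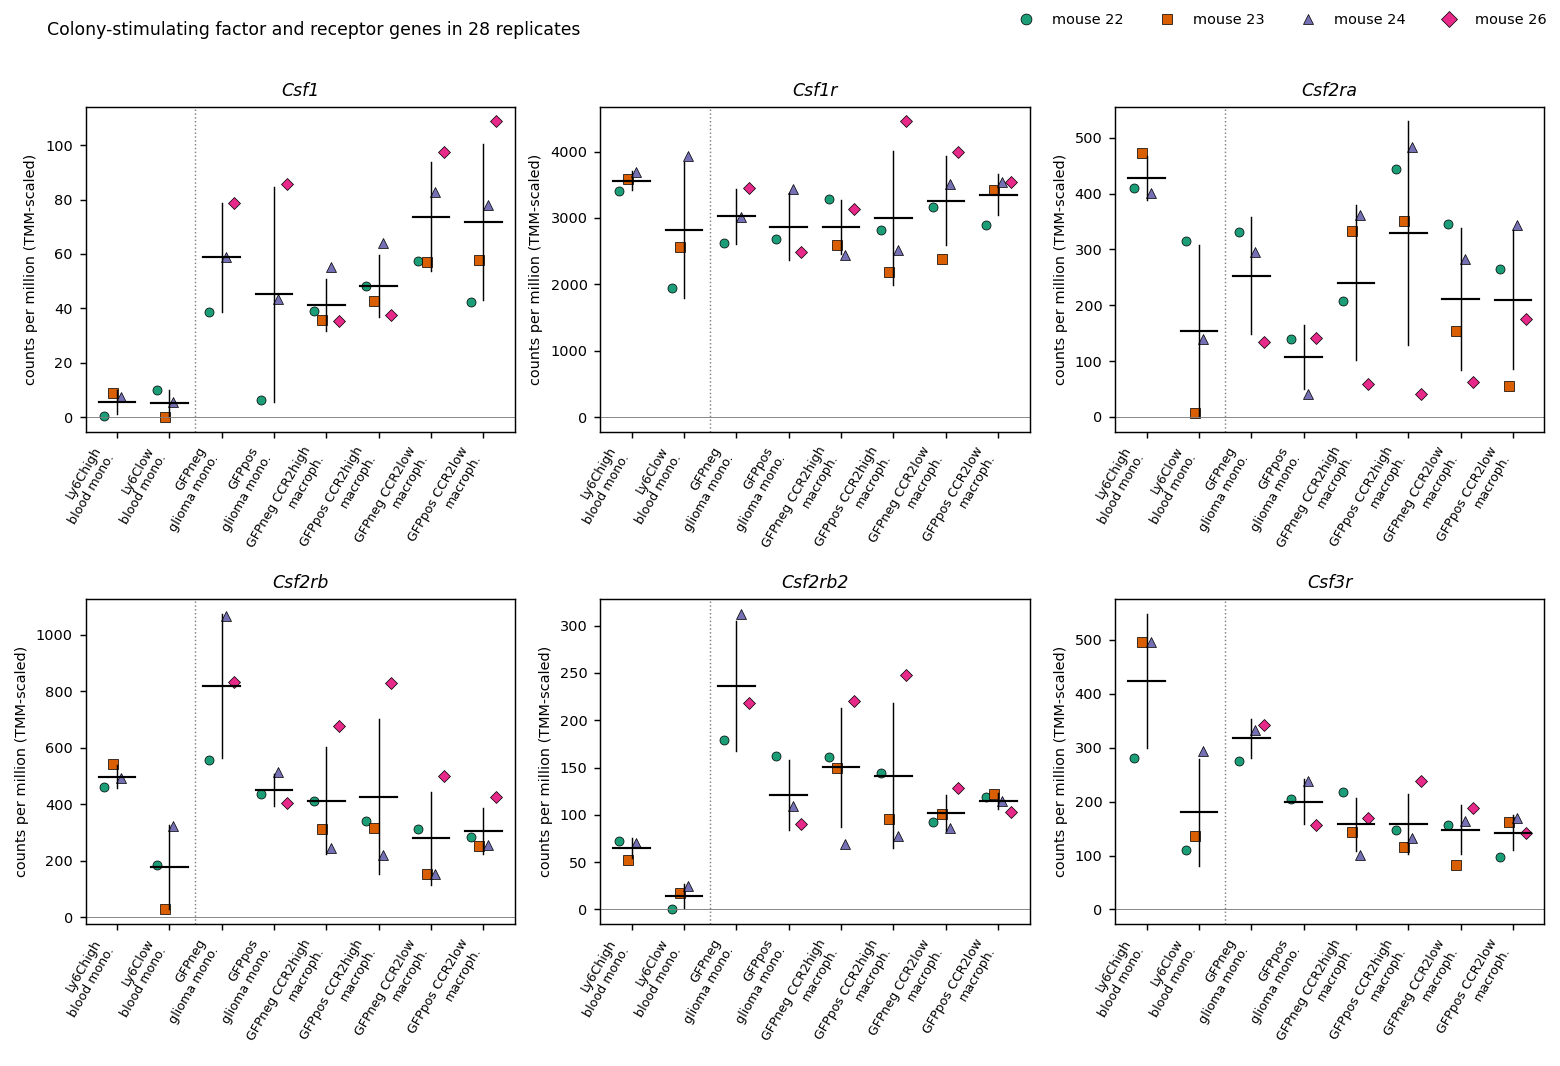
CPM (TMM-scaled, linear axes) of each gene in 28 replicates, by population; symbols mark the mouse, horizontal bars the mean and vertical lines ± 1 SD (n = 3 or 4), and the dotted line parts blood from brain. Csf1 and Csf2rb2 sat above the highest blood value in 21 of 22 brain replicates each. Population means of Csf1r lay between 2814 and 3563 CPM, and Csf2ra was spread widely within populations.

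Csf1, the ligand, was close to absent in blood monocytes and was found in brain cells of every type. In Ly6Chigh blood monocytes its level was 0.562, 8.79 and 7.32 CPM in mice 22, 23 and 24, from 1, 15 and 35 counts. In Ly6Clow blood monocytes it was 9.91, 0 and 5.62 CPM in the same mice, where the count of 0 allows up to 1.16 CPM in that replicate (3 counts, counting error only). Both blood populations were low, and they overlapped.

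In GFPneg glioma monocytes Csf1 was at 38.6, 58.9 and 78.7 CPM in mice 22, 24 and 26. GFPpos glioma monocytes of the same mice had 6.32, 43.6 and 85.6 CPM, and the value of mouse 22 was the single brain value within the range of blood. GFPneg CCR2high macrophages had 39.1, 35.7, 55.3 and 35.2 CPM in mice 22, 23, 24 and 26, and their GFPpos counterparts had 48.3, 42.6, 63.9 and 37.7 CPM. The highest levels were in CCR2low macrophages, with 57.3, 57.1, 82.8 and 97.6 CPM in the GFPneg and 42.2, 57.9, 77.9 and 109 CPM in the GFPpos cells. Neighbors in the order of means overlapped within the brain, and the lowest brain population did not overlap Ly6Chigh blood monocytes. In that comparison 4129 of all 11566 genes did not overlap.

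Against Ly6Chigh blood monocytes, Csf1 rose in all 3 GFPneg brain populations, which share those 3 blood replicates as controls. The log2 fold change was 3.36 (SE 0.83, adjusted p = 0.00620) in GFPneg glioma monocytes, 2.85 (SE 0.79, adjusted p = 0.0117) in GFPneg CCR2high macrophages and 3.69 (SE 0.82, adjusted p = 0.00170) in GFPneg CCR2low macrophages. It was higher in 2 of 2, 3 of 3 and 3 of 3 mice that gave both samples. All genes were called at 13.8%, 17.8% and 20.2% in these comparisons, and 2 of the 6 genes were called in each. The call in CCR2high macrophages was lost without the Ly6Chigh replicate of mouse 22 (log2 fold change 2.29, adjusted p = 0.0762), within a range of 0.000374 to 0.269 over 15 alternatives.

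Summed markers of tissue dissociation, microglia, T and NK cells and dendritic cells were, like Csf1, higher in brain than in Ly6Chigh blood monocytes. The summed level of 11 dissociation genes, such as Fos, was 1343 to 2337 CPM in blood and 5321 to 22141 CPM in brain, with all 11 detected in every population. The microglial sum given above separated blood from brain completely as well, and Sall1, Siglech and Slc2a5 were at 0 in both blood populations. The sum of 8 T and NK cell markers was 19.3 to 171 CPM in Ly6Chigh blood monocytes, with Ncr1 at 0, and 446 to 2510 CPM in brain. The sum of 8 dendritic cell markers was 103 to 236 CPM in Ly6Chigh blood monocytes, with Fscn1 at 0, and 421 to 1155 CPM in brain. Flt3, on that list, was lower in GFPneg CCR2low macrophages than in Ly6Chigh cells. Ly6Clow blood monocytes, where Csf1 was low too, had T and NK sums of 899 to 1286 CPM and dendritic sums of 651 to 2391 CPM. The dissociation sum was 12417 to 22141 CPM in GFPneg glioma monocytes. It was lower, at 5712 to 9823 CPM, in GFPneg CCR2low macrophages, where Csf1 had its highest mean. The microglial sum was higher in those macrophages, at 3329 to 9063 CPM against 1691 to 2911 CPM in GFPneg glioma monocytes. In the same order, T and NK sums were 1198 to 2510 against 731 to 1722 CPM. Dendritic sums were 492 to 744 against 421 to 785 CPM. The part of these 4 lists in the results against Ly6Chigh blood monocytes was not tested.

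Csf1r, the receptor for CSF1, had population means between 2814 and 3563 CPM. Ly6Chigh blood monocytes had 3408, 3588 and 3694 CPM in mice 22, 23 and 24, the tightest set of values. Ly6Clow blood monocytes had 1945, 2558 and 3940 CPM in the same mice and spanned most of the range of the brain samples. The 22 brain replicates ran from 2190 to 4456 CPM with a median of 3071 CPM, and 2 of them exceeded the highest blood value. Every pair of neighbors in the order of means overlapped, while GFPneg CCR2high macrophages lay below all Ly6Chigh values. In that comparison 4129 of all 11566 genes did not overlap, in either direction.

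The intervals for Csf1r were narrow. The log2 fold change over Ly6Chigh blood monocytes was -0.24 in GFPneg glioma monocytes (95% interval -0.75 to 0.28), -0.32 in GFPneg CCR2high macrophages (-0.80 to 0.16) and -0.13 in GFPneg CCR2low macrophages (-0.61 to 0.35). Between the blood populations it was 0.34 (-0.18 to 0.86, adjusted p = 0.452), and it passed without the Ly6Clow replicate of mouse 24 (0.75, adjusted p = 0.0375; range over 15 alternatives 0.0375 to 0.879). Since CD115 selected the blood cells and not the brain cells, the blood level also carries the choice of that gate.

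Csf2ra, the alpha chain of the GM-CSF receptor, varied more within populations than between them. It was even in Ly6Chigh blood monocytes, at 411, 473 and 401 CPM in mice 22, 23 and 24. In Ly6Clow blood monocytes it was 315, 6.94 and 140 CPM, all below the Ly6Chigh values. GFPneg glioma monocytes had 332, 294 and 134 CPM in mice 22, 24 and 26, and GFPpos glioma monocytes had 139, 40.2 and 141 CPM.

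Among macrophages, the spread of Csf2ra followed the mouse in part. The 4 macrophage samples of mouse 26 had 40.5 to 175 CPM with a median of 60.5 CPM, while those of mouse 22 had 208 to 443 CPM and those of mouse 24 had 283 to 483 CPM. Mouse 23 lay between, at 54.9 to 350 CPM. For the beta chain gene Csf2rb the same mice stood at the opposite ends, with 424 to 831 CPM in mouse 26 and 153 to 255 CPM in mouse 24, which did not overlap. The ratio of Csf2ra to Csf2rb counts ran accordingly from 0.0488 to 2.21 over the 22 brain replicates. The Csf2ra differences passed in none of the 10 comparisons of population pairs, and the intervals were wide, such as -0.33 to 3.29 for Ly6Chigh against Ly6Clow blood monocytes and -3.04 to 0.57 for GFPpos against GFPneg glioma monocytes.

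Csf2rb, the shared beta chain, was highest in GFPneg glioma monocytes, but no comparison called it. Those samples had 557, 1068 and 833 CPM in mice 22, 24 and 26, above the 461, 541 and 492 CPM of Ly6Chigh blood monocytes in mice 22, 23 and 24. GFPpos glioma monocytes stood lower, at 436, 513 and 404 CPM in mice 22, 24 and 26. Ly6Clow blood monocytes had 184, 27.4 and 322 CPM and did not overlap the Ly6Chigh values.

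In macrophages Csf2rb ranged from 219 to 831 CPM in the CCR2high and from 153 to 499 CPM in the CCR2low populations. The log2 fold change of GFPneg CCR2low macrophages over GFPneg glioma monocytes was -1.55 (SE 0.53, n = 4 and 3), without overlap and lower in 3 of 3 mice, but it missed the threshold (adjusted p = 0.218). Between Ly6Chigh and Ly6Clow blood monocytes it was 1.49 (SE 0.58, adjusted p = 0.127). With the mouse as a replicate block that difference was 1.66 and passed (adjusted p = 0.0463), as it did without the Ly6Clow replicate of mouse 24 (2.30, adjusted p = 0.0140); over 15 alternatives the adjusted p ran from 0.0140 to 0.740.

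Csf2rb2, the additional mouse beta chain, was low in Ly6Clow blood monocytes, intermediate in Ly6Chigh blood monocytes and highest in GFPneg glioma monocytes. Ly6Clow samples had 0, 16.96 and 24.9 CPM in mice 22, 23 and 24, where the count of 0 allows up to 1.42 CPM. Ly6Chigh samples had 71.9, 52.7 and 69.8 CPM in the same mice, without overlap. GFPneg glioma monocytes of mice 22, 24 and 26 had 179, 313 and 218 CPM, again without overlap with blood. Between the blood populations 2062 of all 11566 genes did not overlap, and between GFPneg glioma and Ly6Chigh blood monocytes 4122.

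The Ly6Chigh cells exceeded the Ly6Clow cells by 2.19 on the log2 scale (SE 0.63, adjusted p = 0.0393), and GFPneg glioma monocytes exceeded the Ly6Chigh cells by 1.86 (SE 0.61, adjusted p = 0.0400). Both calls lay near the threshold. Markers of other cells separated the blood populations as well, and their part in the blood differences was not tested. Ly6Clow samples had higher sums of T and NK cell markers (899 to 1286 CPM), of dendritic cell markers (651 to 2391 against 103 to 236 CPM) and of 4 B cell markers (244 to 442 against 58.5 to 110 CPM). The Ly6Clow replicate of mouse 23 also stood apart by its share of spike-in reads (13.3%, against 0.290% to 2.47% in the other blood replicates). The Csf2rb2 call between the blood populations was kept in 7 of 14 alternatives, with adjusted p from 0.00280 to 0.811. It was lost without any 1 of the 3 Ly6Chigh replicates or the Ly6Clow replicate of mouse 23. The call in GFPneg glioma monocytes was kept in 4 of 14, with adjusted p from 0.000672 to 0.785, and was lost whichever of the 6 replicates was left out. With the mouse as a replicate block it was 1.76 (adjusted p = 0.0537).

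In GFPneg CCR2high macrophages Csf2rb2 was at 161, 149, 69.1 and 221 CPM in mice 22, 23, 24 and 26, and in GFPneg CCR2low macrophages at 91.9, 100.5, 85.6 and 129 CPM. Their log2 fold changes over Ly6Chigh blood monocytes were 1.21 (SE 0.57, adjusted p = 0.153) and 0.65 (SE 0.56, adjusted p = 0.484). Neither passed, although all 4 CCR2low values lay above the blood values. For CCR2low macrophages against Ly6Chigh cells, 4078 of all 11566 genes did not overlap, in either direction. Fitted on the compared populations alone, the CCR2high difference passed (1.21, adjusted p = 0.0232), within a range of 0.0232 to 0.843 over 15 alternatives.

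**Figure D2:**
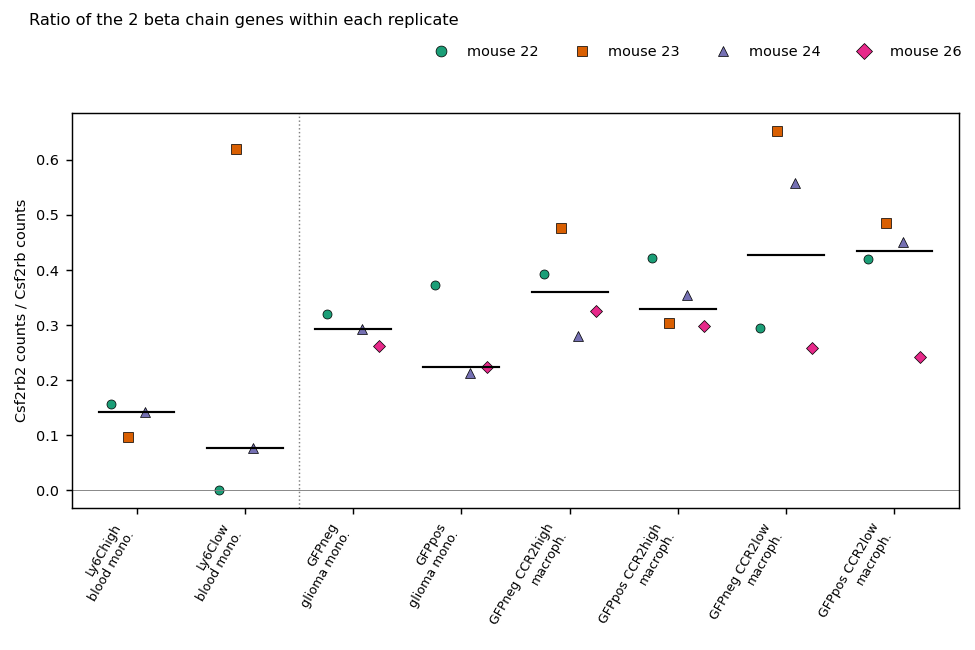
Csf2rb2 counts divided by Csf2rb counts within each of 28 replicates, by population, on a linear axis; symbols mark the mouse and horizontal bars the population median. Brain replicates lay between 0.214 and 0.652, above all 3 Ly6Chigh values; the Ly6Clow value of mouse 23 (0.620) was the single blood value among them.

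The balance of the beta chain genes in Ly6Chigh blood monocytes stood apart from that in brain. The ratio of Csf2rb2 to Csf2rb counts, which needs no scaling between libraries, was 0.0974 to 0.156 in Ly6Chigh blood monocytes and 0.214 to 0.652 in the 22 brain replicates, without overlap. Population medians in the brain ran from 0.224 in GFPpos glioma monocytes to 0.435 in GFPpos CCR2low macrophages. The Ly6Clow ratios of 0, 0.620 and 0.0772 in mice 22, 23 and 24 were scattered. The ratio was not tested across all genes, and it rests on the split of reads between 2 similar genes.

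Csf3r, the G-CSF receptor, was highest in Ly6Chigh blood monocytes and fell in macrophages. Its level was 281, 496 and 497 CPM in Ly6Chigh blood monocytes of mice 22, 23 and 24, and 110, 136 and 293 CPM in Ly6Clow blood monocytes. The blood populations overlapped, since the Ly6Clow sample of mouse 24 exceeded the Ly6Chigh sample of mouse 22, but the Ly6Chigh sample was higher in all 3 mice. GFPneg glioma monocytes kept an intermediate level, with 276, 334 and 343 CPM in mice 22, 24 and 26. GFPpos glioma monocytes of the same mice had 205, 238 and 157 CPM, which overlapped Ly6Clow blood monocytes and macrophages.

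Macrophages were lower. GFPneg CCR2high macrophages had 218, 144, 101 and 169 CPM in mice 22, 23, 24 and 26, and GFPneg CCR2low macrophages had 157, 82.3, 163 and 188 CPM. Neither overlapped Ly6Chigh blood monocytes, nor did 4129 of all 11566 genes in the CCR2high and 4078 in the CCR2low cells. Csf3r fell by 1.43 on the log2 scale (SE 0.34, adjusted p = 0.00344) in the former and by 1.53 (SE 0.34, adjusted p = 0.00173) in the latter, lower in 3 of 3 mice each. These calls held with every replicate left out in turn. In GFPneg glioma monocytes the log2 fold change was -0.42 (SE 0.36, adjusted p = 0.557).

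Between the blood populations the log2 fold change of Csf3r was 1.24 (SE 0.37, adjusted p = 0.0462), and 2 of the 6 genes were called there beside 5.61% of all genes. It was kept in 8 of 15 alternatives, with adjusted p from 0.00148 to 0.576, and was lost without the Ly6Chigh replicate of mouse 23 or 24, or the Ly6Clow replicate of mouse 22 or 23. Neutrophil markers were present in many of these samples. The summed level of 11 neutrophil genes was 388 to 1486 CPM in Ly6Chigh and 620 to 1032 CPM in Ly6Clow blood monocytes, 23.97 to 387 CPM in GFPneg CCR2high macrophages and 99.6 to 2180 CPM in GFPneg CCR2low macrophages. In GFPneg glioma monocytes it was 84.3 to 1819 CPM. The highest sum, 2822 CPM, was in GFPpos glioma monocytes of mouse 24, where Csf3r was at 238 CPM, the highest value of that population. Elane and Mpo, markers of neutrophil precursors, were detected in Ly6Chigh blood monocytes, GFPneg glioma monocytes and GFPpos CCR2high macrophages. They were at 0 in Ly6Clow blood monocytes and in the other brain populations. Ngp, Camp and Ltf, also among the 11 genes, were at 0 in Ly6Clow blood monocytes too. The part of neutrophil RNA in the Csf3r result was not tested.

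**Figure D3:**
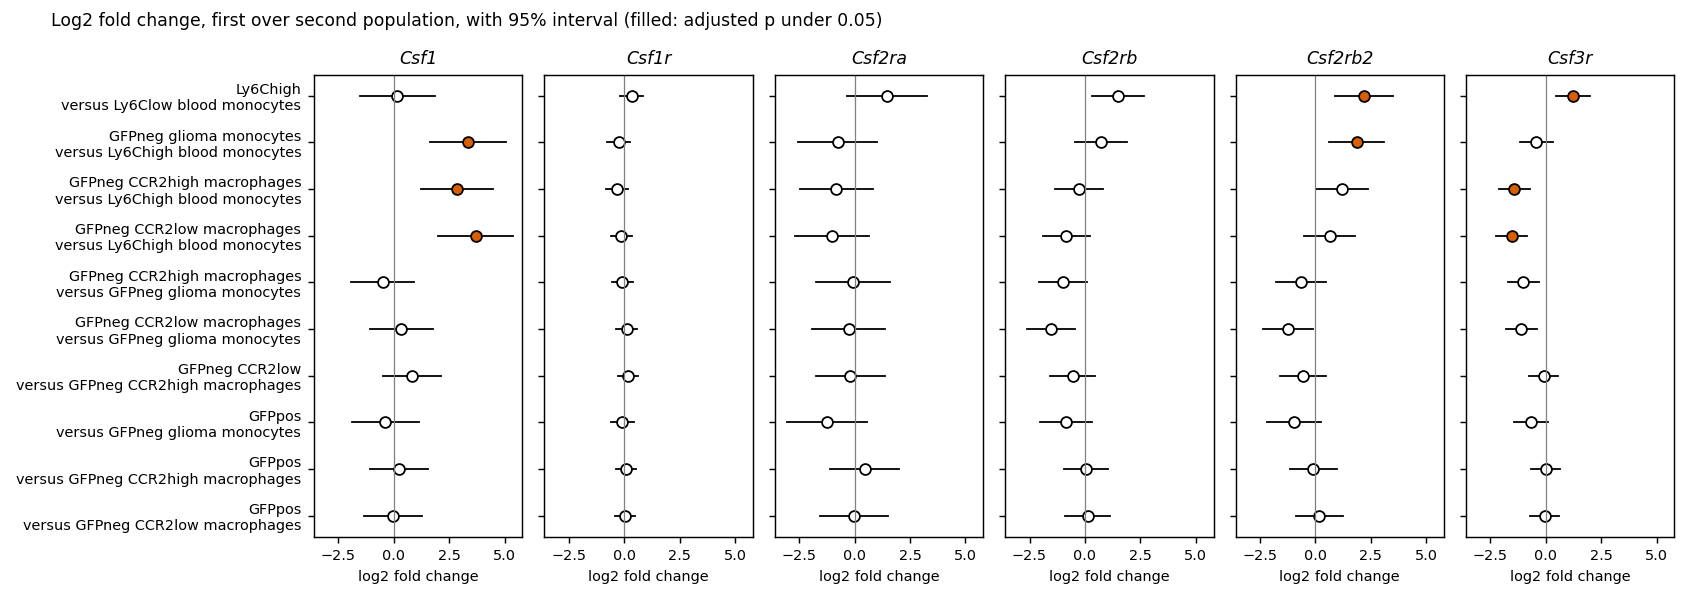
Log2 fold change (first population over second) of each gene in 10 comparisons, as points with 95% intervals; filled points passed edgeR's test at adjusted p under 0.05. The 8 filled points are Csf1 in all 3 comparisons of brain with blood, Csf3r in the 2 with macrophages, Csf2rb2 in glioma monocytes, and Csf2rb2 and Csf3r between the blood populations.

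Within the brain, none of the 6 genes passed in any of the 6 comparisons. For GFPneg CCR2high macrophages against GFPneg glioma monocytes, where 0.182% of all genes were called, Csf3r came nearest, with a log2 fold change of -1.01 (SE 0.34, adjusted p = 0.392) and no overlap. There 1356 of all 11566 genes did not overlap. Against the same monocytes, GFPneg CCR2low macrophages had a Csf3r log2 fold change of -1.11 (SE 0.34, adjusted p = 0.132), beside 1.21% of all genes called. Csf2rb, Csf2rb2 and Csf3r were each lower in the macrophages of 3 of 3 mice in that comparison, without overlap, as were the values of 1596 of all 11566 genes in either direction. Fitted on these 2 populations alone, edgeR called Csf2rb2 (log2 fold change -1.22, adjusted p = 0.0282), while the fit over all replicates gave an adjusted p of 0.510 and the range over 15 alternatives was 0.0282 to 1.

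CCR2low and CCR2high GFPneg macrophages differed most in Csf1, with a log2 fold change of 0.83 (SE 0.64), no overlap (362 of 11566 genes did not overlap) and a higher value in CCR2low cells of 4 of 4 mice, yet the adjusted p was 1. In this comparison 0% of all genes passed edgeR's test, 276 genes had an unadjusted p under 0.05, and DESeq2 called 8.

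Uptake of tumor membrane, read as GFP, was not accompanied by a called change in any of the 6 genes. In glioma monocytes all 6 log2 fold changes of GFPpos over GFPneg were below 0, from -1.24 for Csf2ra to -0.08 for Csf1r. Csf2rb, Csf2rb2 and Csf3r were lower in the GFPpos cells of 3 of 3 mice without overlap, at -0.86 (95% interval -2.03 to 0.30), -0.97 (-2.18 to 0.25) and -0.67 (-1.42 to 0.08), with adjusted p of 0.83 or more. Of all 11566 genes, 1571 did not overlap in this comparison. The GFPpos glioma monocytes of mice 22 and 24 also stood apart by their share of spike-in reads. It was 3.59% and 5.16%, against 0.284% to 1.17% in the other brain replicates. The sample of mouse 22 was the sum of 2 libraries. In CCR2high macrophages the values ran from -0.09 for Csf2rb2 to 0.45 for Csf2ra, and in CCR2low macrophages from -0.05 for Csf3r to 0.18 for Csf2rb2. All genes were called at 0% in each of the 3 GFP comparisons, with 739, 69 and 184 genes at an unadjusted p under 0.05 and 13, 1 and 5 called by DESeq2. A test of whether the GFP effect differed among the 3 cell types called none of the 6 genes and none of the 11566 genes (edgeR, 0 calls).

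Across the 22 brain replicates, Csf2rb, Csf2rb2 and Csf3r rose and fell together. Pearson's r of their log2 CPM was 0.82 for Csf2rb with Csf2rb2, 0.79 for Csf2rb with Csf3r and 0.72 for Csf2rb2 with Csf3r. Csf2ra ran against Csf1r (r = -0.58) and Csf2rb (r = -0.41). These replicates share 4 mice, library scaling and, for the beta chains, some sequence, so the values are descriptions without a test.

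Some genes outside the set followed a member closely over all 28 replicates, among 8128 genes with sufficient counts. Among the genes most like Csf1 were Slc3a2 (r = 0.91) and Cd164 (r = 0.90). Csf2rb was most like Bcl2l11 (r = 0.93), Csf2rb2 like Frmd4b (r = 0.91) and Csf3r like Cers6 (r = 0.87). Csf2ra was most like Trpc4ap (r = 0.96), and Csf1r like 2210018M11Rik (r = 0.83). Within the 22 brain replicates, r was 0.94 for Csf2ra with Trpc4ap, 0.86 for Csf2rb with Bcl2l11, 0.82 for Csf3r with Cers6 and 0.81 for Csf1r with 2210018M11Rik. It was lower for Csf1 with Slc3a2 (0.56) and for Csf2rb2 with Frmd4b (0.31). Spearman's correlation over the 28 replicates was 0.73 and 0.66 for these pairs. Ranked by Spearman's correlation, or in the brain replicates alone, at most 1 of the 3 genes most like each member was kept. For Csf1 and Csf2rb2 none was kept either way.

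The other ligands of this family were scarce. Of 42 further genes of the pathway, 38 passed the filter on low counts, and Csf3, Il3, Il5 and Il5ra did not. Csf2, which encodes GM-CSF, was at 0 in all 3 Ly6Chigh replicates and was detected in all 22 brain replicates, at a mean of 3.16 ± 0.62 CPM (SD, n = 3) in GFPneg glioma monocytes, 6.73 ± 4.82 CPM (n = 4) in GFPneg CCR2high and 17.6 ± 14.6 CPM (n = 4) in GFPneg CCR2low macrophages. These means were at least 8.71-fold, 18.6-fold and 48.5-fold higher than the 0.363 CPM that 3 counts over the 3 Ly6Chigh replicates would give, and passed with adjusted p of 0.0308, 0.00646 and 0.00130. Sums of T and NK cell markers were also higher in these populations, at 731 to 1722, 729 to 2197 and 1198 to 2510 CPM. In Ly6Chigh blood monocytes they were 19.3 to 171 CPM. GFPpos glioma monocytes, CCR2high and CCR2low macrophages averaged 16.7, 4.33 and 7.41 CPM of Csf2. Their T and NK sums were 568 to 1632, 533 to 1266 and 446 to 1169 CPM. The part of T and NK cells in the Csf2 result was not tested. Il34, the alternative ligand of CSF1R, was at 0 in all 6 blood replicates and at or under 17.3 CPM in brain.

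Kit, the stem cell factor receptor of mast cells and progenitors, was at 0 in Ly6Chigh blood monocytes and averaged 23.2 ± 16.97 CPM (SD, n = 3) in GFPneg glioma monocytes (adjusted p = 0.00547), at least 63.9-fold above the same limit. Means were 25.3 CPM in GFPneg CCR2high macrophages, 14.3 CPM in GFPneg CCR2low macrophages and 17.8 to 25.7 CPM in the GFPpos populations. Markers of basophils and mast cells summed to 0 to 2.07 CPM in blood and 0 to 177 CPM in brain, and their part in the Kit result was not tested. Flt3, the receptor for a growth factor of dendritic cells and progenitors, fell by 2.26 on the log2 scale (SE 0.66, adjusted p = 0.0158) in GFPneg CCR2low macrophages.

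Some negative regulators were higher in GFPneg brain cells than in Ly6Chigh blood monocytes, and a link to Csf1 was not tested. Of 8 negative regulators tested, 3 rose in each of the 3 comparisons of GFPneg brain cells with Ly6Chigh blood monocytes, and none fell, beside 13.8%, 17.8% and 20.2% of all genes called, most of them higher (1286 of 1596, 1466 of 2060 and 1636 of 2340). They were Socs3, Cish and Dok2. Cish, a target and inhibitor of STAT5 signaling, went from 1.35 ± 1.48 CPM (SD, n = 3) in Ly6Chigh blood monocytes to 192 ± 87.5 CPM (n = 3) in GFPneg glioma monocytes, a log2 fold change of 6.80 (SE 0.85, adjusted p = 1.99e-06). The log2 fold change of Socs3, an inhibitor of G-CSF receptor and STAT3 signaling, was 3.37 (SE 0.61, adjusted p = 0.000310) in the same cells. Dok2, an adaptor that damps kinase signaling, rose by 2.09 (SE 0.33, adjusted p = 6.19e-05).

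Of 18 signal transduction genes tested, 1 rose and 5 fell in GFPneg CCR2high macrophages, where 17.8% of all genes were called, and 5 fell in GFPneg CCR2low macrophages, where 20.2% were. The other 12 and 13 did not pass. The 5 that fell were in both cases Stat5b, Pik3cd, Lyn, Plcg2 and Tyrobp. Lyn, a SRC family kinase, fell by 0.93 (SE 0.21, adjusted p = 0.00210) and by 1.05 (SE 0.21, adjusted p = 0.000570) on the log2 scale. Plcg2, a phospholipase, fell by 1.75 (SE 0.43, adjusted p = 0.00470) and by 1.98 (SE 0.43, adjusted p = 0.00153). Jak2, the kinase bound to the beta chains, rose in GFPneg glioma monocytes by 2.28 (SE 0.55, adjusted p = 0.00478) and in GFPneg CCR2high macrophages by 1.88 (SE 0.52, adjusted p = 0.0114).

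Of 7 transcription factor genes, 1 rose in each comparison, a share close to or below that of all genes (13.8%, 17.8% and 20.2%). Ets2, which acts below CSF1R signaling, reached 223 ± 119.8 CPM (SD, n = 3) in GFPneg glioma monocytes from 10.8 ± 6.87 CPM in Ly6Chigh blood monocytes (log2 fold change 4.32, SE 0.89, adjusted p = 0.00121). In all, 7 of the 38 genes tested were called in glioma monocytes (7 higher), 12 in CCR2high macrophages (7 higher, 5 lower) and 12 in CCR2low macrophages (6 higher, 6 lower), beside the same shares of all genes. The median log2 fold changes over the list were 0.13, -0.21 and -0.33, against 0.12, 0.15 and 0.17 over all genes. Between the blood populations 4 were called, beside 5.61% of all genes, of which Irf8 was higher and Akt1, Dok2 and Cebpb were lower in Ly6Chigh cells. None of the 38 was called in the comparisons within the brain.

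**Figure D4:**
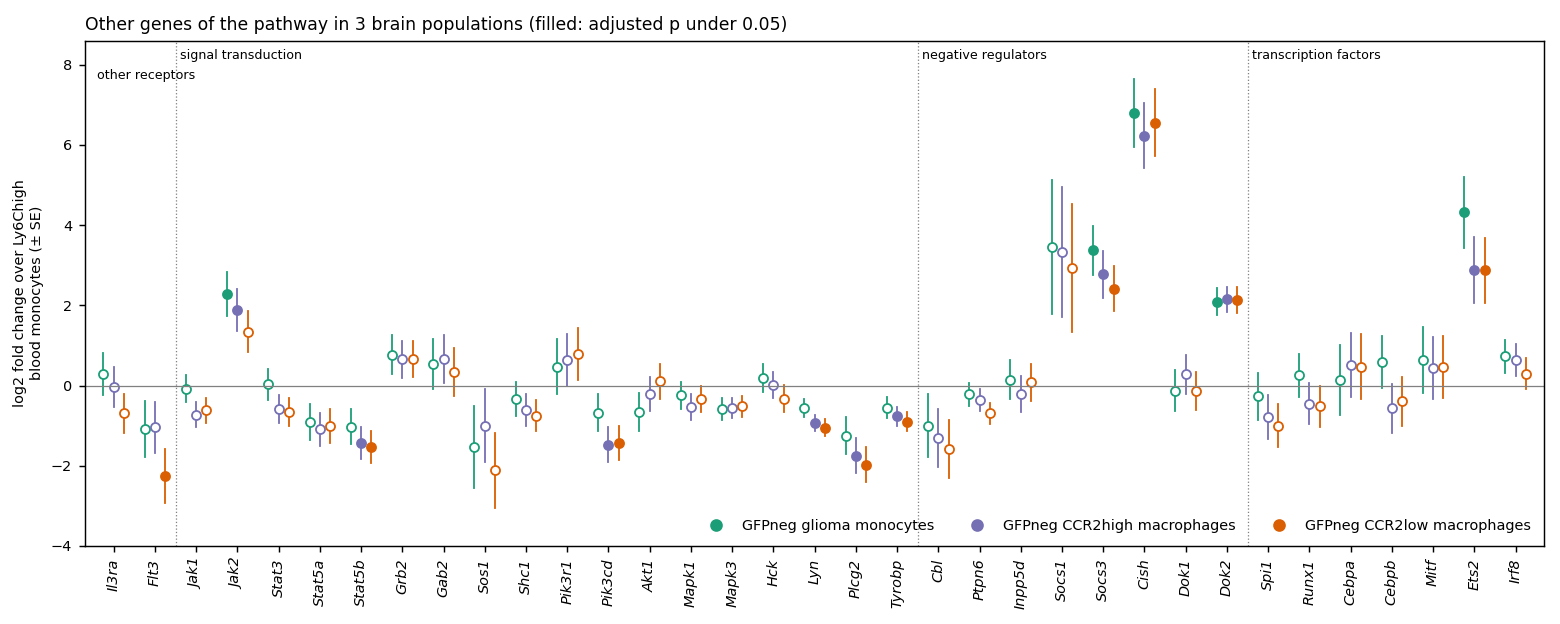
Log2 fold change over Ly6Chigh blood monocytes (points, ± SE) of 35 other pathway genes in 3 GFPneg brain populations, grouped by role; filled points passed edgeR's test at adjusted p under 0.05, and 7 genes at 0 in Ly6Chigh cells are left out. Cish, Socs3, Dok2 and Ets2 lie above 0 in all 3 populations, while Stat5b, Pik3cd, Lyn, Plcg2 and Tyrobp are filled below 0 in both macrophage populations.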

How the data were processed

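RNA from sorted cells was amplified from polyadenylated transcripts with a low-input kit and sequenced as paired reads. Per the paper's methods and the submitters' notes, the authors aligned reads to the mouse genome with STAR, removed duplicates with Picard 1.8.4 and counted reads per gene with HTSeq (annotation build GRCm38.p3; R 3.2.3 and DESeq2 are named too). The deposited values are raw counts per gene, with 92 spike-in rows and summary rows kept out of all totals. Reads without a gene made up 6.28% to 17.4% and ambiguous reads 1.58% to 1.90% of each library.

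Of 30 libraries, 1 (the first of Ly6Clow blood monocytes, mouse 23) had fewer than 6000 genes with at least 5 reads, the authors' rule, and was replaced by a second library of that sample. The 2 libraries of GFPpos glioma monocytes, mouse 22, were summed. This left 28 replicates from 4 mice with 1553616 to 5689644 counts each, so limits from counts of 0 cover counting error only. CPM are counts scaled to library size with TMM factors.

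Tests used edgeR 4.0.16 (R 4.3.3; quasi-likelihood, 1 fit over all replicates, filterByExpr, 11566 genes, prior count 2, Benjamini-Hochberg adjusted p under 0.05). Samples of 1 mouse come from the same animal, so the design is paired; the correlation of deviations over 32 same-mouse pairs had a median of 0.15 (-0.08 to 0.67; 22 over 0.1). Alternatives were DESeq2 1.42.0, its size factors, spike-in scaling, other filters, a fit on the compared populations, the mouse as a replicate block, each library of resequenced samples alone, and leaving out each replicate. The script was tested on simulated data. Likeness of other genes was Pearson's r of log2 CPM over genes averaging 10 CPM or more, and the 3 highest were kept; 1 of them is not reported here. The 6 genes, the pathway list of 42 genes and the marker lists were chosen with earlier results of these data known. Transcript lengths and positions came from GENCODE vM21 and promoters from RefSeq.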

Additional observations from a re-analysis of the deposited data

How the results depend on the processing

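Of 119 settings tried over the 8 called changes, 88 kept the call, 31 lost it and none reversed the direction. Scaling by spike-ins, whose share of counts ran from 0.284% to 13.3%, shifted the all-gene median by 1.67 (log2) between the blood populations and by -1.44 for GFP in glioma monocytes, and left 0 of the 6 genes called in the blood comparison, in each comparison with Ly6Chigh cells and over the 8 populations. The log2 fold changes over Ly6Chigh cells stayed close under that scaling, at 3.32, 2.85 and 3.54 for Csf1 in the 3 GFPneg brain populations, 1.58 for Csf2rb2 in monocytes and -1.49 and -1.67 for Csf3r in macrophages, while the blood differences grew to 3.66 for Csf2rb2 and 2.61 for Csf3r. Between the blood populations, 1 of the 6 was called with a filter of 1 count, with 10 counts in every replicate (4 of the 6 tested) and with the first library alone, 0 with the compared populations alone, and 0 to 4 with 1 replicate left out. In GFPneg glioma monocytes over Ly6Chigh cells, 1 was called with a filter of 1 count, the replicate block or the first library alone, 0 with 10 counts in every replicate and 1 with any replicate left out. In GFPneg CCR2high macrophages 1 was called with the strict filter or the first library alone and 1 to 2 with a replicate left out, and in GFPneg CCR2low macrophages and over the 8 populations 1 with the strict filter. The compared populations alone gave 1 call (Csf2rb2) for GFPneg CCR2low macrophages over glioma monocytes, and DESeq2 gave 1 (Csf3r) over the brain populations. The cause was not tested, apart from the genes and samples that a filter or leave-out removes. Beside the values given with the results, the replicate block changed no other call of the 6 genes.

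Signs changed only for differences that were not called. With spike-ins, the log2 fold change of GFPneg CCR2high macrophages over glioma monocytes was 0.017 for Csf1r and 0.18 for Csf2ra. That of GFPpos over GFPneg CCR2high macrophages was -0.16 for Csf1, -0.13 for Csf1r, -0.0091 for Csf2ra, -0.078 for Csf2rb and -0.19 for Csf3r, and in CCR2low macrophages it was 0.49 for Csf1, 0.52 for Csf2ra and 0.26 for Csf3r. The filter of 1 count gave 0.0069 for Csf2ra by GFP in CCR2low macrophages, and the replicate block 0.14, with -0.045 for Csf3r in CCR2high macrophages. With 1 replicate left out, Csf1 ran from -0.37 to 0.97 between the blood populations and from -1.28 to 0.12 by GFP in glioma monocytes, where Csf1r ran from -0.26 to 0.016. For CCR2high macrophages over monocytes Csf2ra ran from -0.40 to 0.26 and Csf1r from -0.18 to 0.0027. For CCR2low macrophages over monocytes Csf2ra ran from -0.60 to 0.052. For CCR2low over CCR2high macrophages Csf3r ran from -0.25 to 0.10 and Csf2ra from -0.53 to 0.13. By GFP in CCR2high macrophages Csf2rb ran from -0.50 to 0.38, Csf3r from -0.27 to 0.18, Csf2rb2 from -0.51 to 0.14 and Csf1r from -0.19 to 0.18. By GFP in CCR2low macrophages Csf2ra ran from -0.38 to 0.33, Csf1r from -0.085 to 0.12, Csf2rb from -0.092 to 0.53, Csf1 from -0.32 to 0.15 and Csf3r from -0.25 to 0.086.

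Over all genes, calls fell with spike-ins from 649 to 36 between the blood populations, from 1596 to 398 in glioma monocytes, from 2060 to 523 and from 2340 to 591 in CCR2high and CCR2low macrophages over Ly6Chigh cells, from 21 to 0 and 140 to 1 in these macrophages over monocytes, from 2898 to 974 over the 8 populations and from 109 to 8 over the brain populations. Of the blood calls 97.2% were then higher in Ly6Chigh cells, a larger share than before (227 of 649). The replicate block gave 96, 284, 230 and 3 in place of 21, 140, 109 and 0. With 1 replicate left out, the blood calls ran from 224 (without Ly6Chigh mouse 23) to 2444 (without Ly6Clow mouse 24, 62.3% higher). Without Ly6Chigh mouse 24 the 3 brain populations had 1018, 1307 and 1541 calls over Ly6Chigh cells. CCR2low macrophages over monocytes fell to 47 and the brain populations to 46 without GFPneg monocytes of mouse 24, the latter rose to 164 without GFPpos monocytes of mouse 26, and CCR2high macrophages over monocytes fell to 6 without CCR2high mouse 22. The blood calls were 397 with the filter of 1 count, 400 with the first library alone, 0 with the compared populations alone and 1359 by DESeq2. The strict filter gave 631, 986, 1034, 48 and 1417 in place of 1596, 2060, 2340, 21 and 2898. The compared populations alone gave 101, 293 and 290, and DESeq2 93, 258 and 707, in place of 21, 140 and 109.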

Other observations

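Libraries of 1 sample did not always agree on these genes. The library of Ly6Clow blood monocytes of mouse 23 that was left out held 208 counts of Csf2ra, 353 of Csf2rb, 0 of Csf2rb2 and 3 of Csf3r among 1091905 counts on genes. The library used held 18, 71, 44 and 354 counts of these genes among 2690612. For GFPpos glioma monocytes of mouse 22, the first library held 0 counts of Csf1 and 542 of Csf2ra among 1681021, and the second held 31 and 141 among 4008623. No explanation was tested.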
